A study of Mus musculus with 6 samples.

Results

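Adipocytes carry many G protein-coupled receptors besides the adrenergic ones, and 10 of these receptor genes for hormones and metabolites were followed in whole inguinal white adipose tissue (iWAT): *Tshr*, *Gipr*, *Cnr1*, *Adora1*, *Ptger3*, *Hcar1*, *Hcar2*, *Sucnr1*, *Ffar2* and *Ffar4*. The members were chosen by gene symbol, and all 10 were found among the 36144 symbols in the deposited gene table. Whole iWAT from 3 Cebpa_fl/fl and 3 Cebpa_ASKO mice was compared by bulk RNA-seq, with 1 paired-end library for each mouse. All 6 mice were 10-week-old females of the C57BL6/J background, fed chow ad libitum. All were homozygous for a floxed allele of *Cebpa*, the gene for the adipocyte transcription factor C/EBPα. Cebpa_ASKO mice also carried the AdipoQ-Cre transgene, which the Cebpa_fl/fl controls lacked. The *Adipoq* promoter drives Cre late in adipocyte differentiation and in adiponectin-expressing cells, so other cells of the depot keep *Cebpa*. The inguinal depots of both sides were combined for each mouse after the lymph nodes were taken out. The comparison asked how these receptor transcripts differed when adipocytes lacked *Cebpa*.

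Most of these receptors act on the lipolysis of adipocytes through cyclic AMP. Receptors that couple to Gs, such as those for thyroid-stimulating hormone (*Tshr*) and the incretin GIP (*Gipr*), raise cyclic AMP and so promote the breakdown of stored triglyceride. Receptors that couple to Gi lower cyclic AMP and restrain it, and these include the receptors for cannabinoids (*Cnr1*), adenosine (*Adora1*), prostaglandin E2 (*Ptger3*), lactate (*Hcar1*) and the ketone body β-hydroxybutyrate (*Hcar2*). The succinate receptor (*Sucnr1*) and the short-chain fatty acid receptor (*Ffar2*) can couple to Gi or Gq, and the long-chain fatty acid receptor (*Ffar4*) is known mainly for Gq coupling and arrestin signalling.

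Promoter sequences were read for these genes because C/EBPα is a DNA-binding factor. The motif TTGCNNAA is a loose form of its site, in which the bases marked N are open, so a match need not hold a full second half-site. RefSeq start sites in GRCm38 gave 13 windows, each from 250 bases before to 50 bases after a start, for 7 of the 10 genes, and no window was taken for *Tshr*, *Hcar2* or *Gipr*. Of the 7 genes, *Ffar2* was the 1 with a match to TTGCNNAA on either strand, and each of its 4 windows held 1 match. Over the whole RefSeq table, 10.8% of 32851 windows and 12.2% of 27025 genes held a match. The stricter palindrome TTGCGCAA, which is contained in TTGCNNAA, was in none of the 13 windows and in 0.183% of all windows. A match is a description of the letters and does not show binding. Shown here, 5′ to 3′ on the minus strand of the gene, are 3 *Ffar2* windows that hold different matches, in capitals. The first lies at chr7:30823726-30824025, the second at chr7:30821599-30821898 and the last at chr7:30821090-30821389. The first base of the match stood 74 bases before the start in the first window, 148 before it in the second and 23 before it in the last. A further window overlapped the last and held the same match.
Ffar2, first window: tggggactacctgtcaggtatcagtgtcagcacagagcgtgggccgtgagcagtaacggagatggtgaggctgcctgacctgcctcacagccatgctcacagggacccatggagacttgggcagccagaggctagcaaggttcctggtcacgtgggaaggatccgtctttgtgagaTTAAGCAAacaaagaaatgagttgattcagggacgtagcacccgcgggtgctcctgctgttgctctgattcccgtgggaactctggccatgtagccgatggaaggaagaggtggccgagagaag
Ffar2, second window: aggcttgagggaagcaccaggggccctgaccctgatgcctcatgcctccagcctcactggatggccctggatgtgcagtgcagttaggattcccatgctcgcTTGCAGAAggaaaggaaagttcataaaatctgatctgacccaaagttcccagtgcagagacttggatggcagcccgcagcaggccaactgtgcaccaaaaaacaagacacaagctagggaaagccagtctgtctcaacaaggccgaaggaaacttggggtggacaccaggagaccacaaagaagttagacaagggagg
Ffar2, last window: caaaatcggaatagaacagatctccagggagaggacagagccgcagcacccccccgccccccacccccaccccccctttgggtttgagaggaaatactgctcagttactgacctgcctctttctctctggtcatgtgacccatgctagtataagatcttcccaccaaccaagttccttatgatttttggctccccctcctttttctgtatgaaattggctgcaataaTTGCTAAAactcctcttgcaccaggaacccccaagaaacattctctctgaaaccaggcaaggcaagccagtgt

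For comparison, windows of *Cnr1* (chr4:33924394-33924693, plus strand), which had the lowest share of control expression among the genes with a window, and of *Adora1* (chr1:134234807-134235106, minus strand), whose genotypes overlapped, are printed without capitals because neither holds TTGCNNAA. The *Cnr1* window, 1 of 3 for that gene, was 69.0% G and C and the *Adora1* window 66.0%, both above the median of 52.7% over all windows. The other *Cnr1* windows were 76.3% and 46.3%, the latter below the median. The *Sucnr1* window stood at the other end with 40.7%, and 11.4% of all windows had less.
Cnr1: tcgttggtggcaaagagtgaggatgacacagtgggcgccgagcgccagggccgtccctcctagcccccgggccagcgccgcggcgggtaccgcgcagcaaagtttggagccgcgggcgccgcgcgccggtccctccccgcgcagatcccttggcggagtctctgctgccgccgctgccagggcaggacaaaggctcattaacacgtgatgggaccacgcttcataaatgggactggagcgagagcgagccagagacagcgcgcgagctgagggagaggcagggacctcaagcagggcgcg
Adora1: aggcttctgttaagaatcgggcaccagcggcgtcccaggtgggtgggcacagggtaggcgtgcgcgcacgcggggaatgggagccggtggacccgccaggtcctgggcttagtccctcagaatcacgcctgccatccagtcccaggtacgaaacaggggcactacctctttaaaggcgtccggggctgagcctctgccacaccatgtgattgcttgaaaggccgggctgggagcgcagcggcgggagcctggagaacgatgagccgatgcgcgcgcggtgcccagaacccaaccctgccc

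Total estimated counts ran from 33141769 to 49477671 per library. *Cebpa* stood at 448, 465 and 498 TMM-normalized CPM, the counts scaled to library size, in the Cebpa_fl/fl libraries and at 37.7, 45.8 and 37.2 in the Cebpa_ASKO libraries, so 8.55% of the control mean remained. Adipocyte markers were abundant in every library but lower in Cebpa_ASKO iWAT, as the 18 marker genes summed to between 51468 and 61501 CPM in controls and between 16118 and 18720 CPM in Cebpa_ASKO. Of the 18, 11 were called lower, and 7 without Cebpa_ASKO 1 or without Cebpa_ASKO 2. *Slc2a4*, *Lep* and *Aqp7*, also on this marker list, overlapped between the genotypes. Skeletal muscle markers moved the other way, with sums of 566 to 803 CPM in controls and 1900 to 5535 CPM in Cebpa_ASKO. Of these 12 markers 8 were called higher, while *Myh1*, *Myh2* and *Mb* overlapped between the genotypes. The control library Cebpa_fl/fl 1 stood apart with 365 CPM of lymphocyte markers against 10.4 to 24.0 in the other 5 libraries. Mammary epithelial markers summed to 672 to 1338 CPM in controls and 1764 to 1904 CPM in Cebpa_ASKO, while macrophage markers ran from 1211 to 3286 CPM in controls and from 1975 to 2749 CPM in Cebpa_ASKO. Nerve and Schwann cell markers summed to 296 to 403 CPM in controls and 459 to 578 CPM in Cebpa_ASKO, with 1 of 9 tested called higher, *S100b* (9.94 ± 5.13 against 90.3 ± 42.2 CPM), and none without Cebpa_fl/fl 3, Cebpa_ASKO 1 or Cebpa_ASKO 2. Of 10 endothelial markers 9 were lower and 1, *Emcn*, was called, and none was when any library other than Cebpa_ASKO 3 was left out. The part of these other cells in the receptor levels was not tested. In whole tissue, fewer adipocytes and less receptor RNA per adipocyte cannot be told apart.

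Of the 10 receptor genes, 8 were called lower in Cebpa_ASKO iWAT by edgeR's quasi-likelihood test at an adjusted p below 0.05, where 3.84% of the 16069 genes tested were called lower. None was called higher, by edgeR or by DESeq2, where edgeR called 1.39% of all genes higher. An unadjusted p below 0.05 in edgeR was found for 9 of the 10, all of them lower. Over all genes it was found for 3185 of 16069, in either direction. In 9 of the 10, every Cebpa_ASKO library lay below every control library, which was so for 13.2% of all genes tested. The median log2 fold change of the 10 was -2.30, against 0.02 over all genes tested. The number called was 5 without Cebpa_ASKO 1, 6 without Cebpa_ASKO 2 or without Cebpa_fl/fl 3, 7 without Cebpa_fl/fl 1 and 8 without either remaining library. *Tshr*, *Cnr1*, *Ffar2*, *Ffar4* and *Sucnr1* were called under all 15 alternatives, and *Adora1* and *Gipr* under none.

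**Figure D1:**
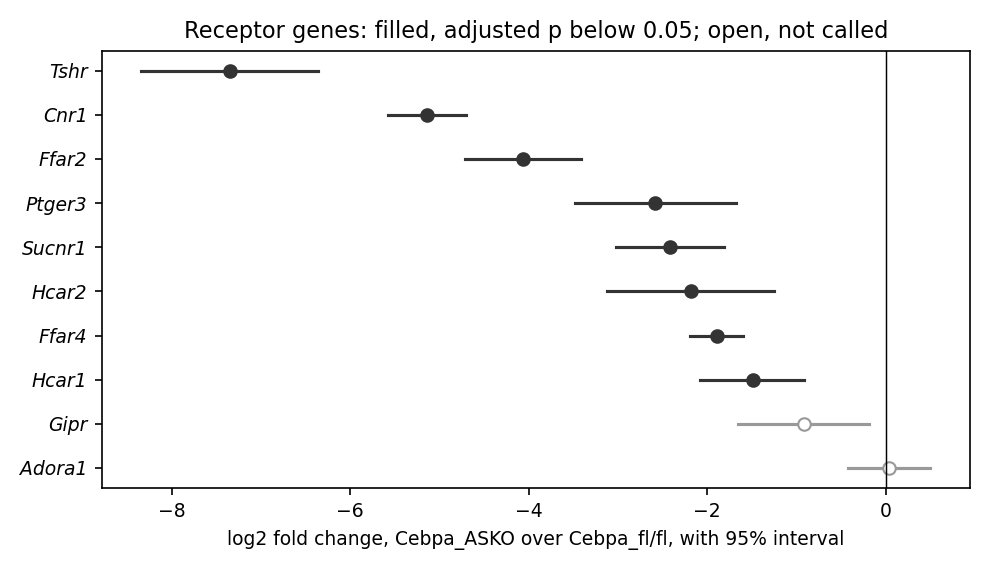
Log2 fold change of each receptor gene, Cebpa_ASKO over Cebpa_fl/fl with 3 libraries each, on the horizontal axis. Points are edgeR estimates and lines their 95% intervals. Filled points were called lower, from *Tshr* at -7.35 to *Hcar1* at -1.49, and the open points of *Gipr* at -0.92 and *Adora1* at 0.04 were not called.

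Among the receptors that couple to Gs, *Tshr* was nearly lost. *Tshr* (chromosome 12, 91384563 to 91549808, plus strand) encodes the thyrotropin receptor, which thyroid cells use to respond to thyroid-stimulating hormone and which adipocytes also carry. It measured 53.5, 85.5 and 75.6 CPM in controls and 0.127, 0.562 and 0.561 CPM in Cebpa_ASKO. Every control library was far above every Cebpa_ASKO library, where the estimated counts were 4, 22 and 25. The mean was 0.582% of the control mean, with a log2 fold change of -7.35 (SE 0.415, 95% interval -8.34 to -6.36, adjusted p = 0.000585). Only 15 of the 16069 genes tested had a larger fitted fall, since *Tshr* stood at rank 16.

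*Gipr* (chromosome 7, 19156061 to 19166127, minus strand), the receptor through which the gut hormone GIP acts, was the least expressed member in controls. It measured 2.12, 2.59 and 3.60 CPM in controls and 1.17, 1.28 and 1.91 CPM in Cebpa_ASKO. The genotypes did not overlap, yet the gap between the highest Cebpa_ASKO library and the lowest control library was small. The log2 fold change of -0.92 (SE 0.309, 95% interval without adjustment -1.66 to -0.19) did not pass the test (adjusted p = 0.162), and over the alternatives it ran from -1.19 to -0.42.

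The Gi-coupled receptors ranged from *Cnr1*, with the largest fall among them, to *Adora1*, whose genotypes overlapped. *Cnr1* (chromosome 4, 33924593 to 33948831, plus strand) encodes the cannabinoid receptor CB1, the target of endocannabinoids made from membrane lipids. Its level was 18.7, 18.9 and 18.4 CPM in controls and 0.666, 0.460 and 0.471 CPM in Cebpa_ASKO. Both genotypes were tight and far apart, and the Cebpa_ASKO mean was 2.85% of the control mean. With a log2 fold change of -5.14 (SE 0.183, 95% interval -5.58 to -4.70, adjusted p = 0.000163), *Cnr1* ranked 3 of all genes tested by p.

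*Adora1* (chromosome 1, 134199223 to 134235431, minus strand) encodes the adenosine A1 receptor, through which adenosine restrains lipolysis. It measured 67.8, 64.3 and 84.6 CPM in controls and 92.8, 72.6 and 57.7 CPM in Cebpa_ASKO. The genotypes overlapped, with the highest and the lowest value both in Cebpa_ASKO libraries. The log2 fold change was 0.04 (SE 0.192, adjusted p = 0.941), and its 95% interval from -0.42 to 0.50 lay above the intervals of the 8 receptors called lower. The sign of this value changed when single libraries were left out, from -0.15 without Cebpa_ASKO 1 to 0.18 without Cebpa_ASKO 3. Of the 5785 exonic bases of *Adora1*, 1162 (20.1%) are also exonic in *Mybph*, a muscle gene on the other strand, and the strand setting of the counting is not given in the sources used here. *Mybph* measured 0.424 to 1.60 CPM in controls and 9.83, 17.0 and 4.53 CPM in Cebpa_ASKO, always below *Adora1*. Without strand, reads of these 2 genes in the shared bases cannot be told apart.

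*Ptger3* (chromosome 3, 157566892 to 157645888, plus strand) encodes the prostaglandin E2 receptor EP3. It was the member with the widest spread among controls, at 73.9, 39.5 and 112 CPM, whereas the Cebpa_ASKO libraries stood close together at 13.9, 13.7 and 9.94 CPM. The groups did not overlap. The fit gave a log2 fold change of -2.58 (SE 0.378, 95% interval -3.48 to -1.68, adjusted p = 0.0129). The call was lost without Cebpa_ASKO 1 (adjusted p = 0.0750) and without Cebpa_ASKO 2 (adjusted p = 0.0629), while the log2 fold change was -2.67 in both.

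*Hcar1* and *Hcar2* are neighbours on chromosome 5, on the same strand and 11236 bases apart. *Hcar1* (123876736 to 123880020) encodes the lactate receptor GPR81, and *Hcar2* (123863570 to 123865499) encodes GPR109A, the receptor of β-hydroxybutyrate and of the drug niacin. *Hcar1* measured 95.9, 137 and 120 CPM in controls and 38.7, 30.2 and 56.2 CPM in Cebpa_ASKO. *Hcar2* measured 41.1, 44.5 and 43.6 CPM in controls and 8.30, 4.70 and 15.4 CPM in Cebpa_ASKO. For both genes every Cebpa_ASKO library was below every control library, and both were highest in Cebpa_ASKO 3 and lowest in Cebpa_ASKO 2. The log2 fold change was -1.49 for *Hcar1* (SE 0.247, 95% interval -2.08 to -0.91, adjusted p = 0.0211). For *Hcar2* it was -2.18 (SE 0.391, 95% interval -3.12 to -1.25, adjusted p = 0.0287).

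Single libraries decided whether this pair passed the test. The *Hcar1* call was lost without Cebpa_fl/fl 3 (adjusted p = 0.0628), Cebpa_ASKO 1 (adjusted p = 0.113) or Cebpa_ASKO 2 (adjusted p = 0.0611), and the *Hcar2* call without Cebpa_fl/fl 1 (adjusted p = 0.0732), the library high in lymphocyte markers, Cebpa_fl/fl 3 (adjusted p = 0.0749) or Cebpa_ASKO 1 (adjusted p = 0.138). The ratio of *Hcar1* to *Hcar2* in TPM, a library-scaled level per transcript length, was 1.31, 1.73 and 1.55 in controls and 2.63, 3.61 and 2.06 in Cebpa_ASKO. The ratios did not overlap, with 1.53 ± 0.209 against 2.77 ± 0.787 (SD, n = 3 each; p = 0.10 by an exact permutation test, two-sided, which can go no lower with 3 libraries a group).

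The receptors for succinate and fatty acids were all lower. *Sucnr1* (chromosome 3, 60081869 to 60087566, plus strand), the receptor for the citric acid cycle intermediate succinate, measured 17.7, 25.9 and 18.6 CPM in controls and 5.01, 3.83 and 2.85 CPM in Cebpa_ASKO. The groups were well apart, and the log2 fold change was -2.42 (SE 0.254, 95% interval -3.02 to -1.81, adjusted p = 0.00378).

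*Ffar2* (chromosome 7, 30818348 to 30823775, minus strand) encodes GPR43, which binds acetate and other short-chain fatty acids, and its windows held the TTGCNNAA matches printed above. It measured 25.2, 44.3 and 25.9 CPM in controls and 2.06, 1.66 and 2.00 CPM in Cebpa_ASKO. Cebpa_fl/fl 2 was the highest library, and the lowest control library was still far above all Cebpa_ASKO libraries. This gave a log2 fold change of -4.06 (SE 0.274, 95% interval -4.71 to -3.41, adjusted p = 0.000783).

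*Ffar4* (chromosome 19, 38097071 to 38114263, plus strand) encodes GPR120, a receptor for long-chain fatty acids including omega-3 fatty acids. It measured 23.4, 23.4 and 22.0 CPM in controls and 6.40, 5.34 and 6.80 CPM in Cebpa_ASKO. The spread within each genotype was small, and the groups did not overlap. The log2 fold change was -1.89 (SE 0.124, 95% interval -2.19 to -1.60, adjusted p = 0.000783). The intervals of *Ffar2* and *Ffar4* did not overlap, and the difference between the 2 genes was not itself tested.

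**Figure D2:**
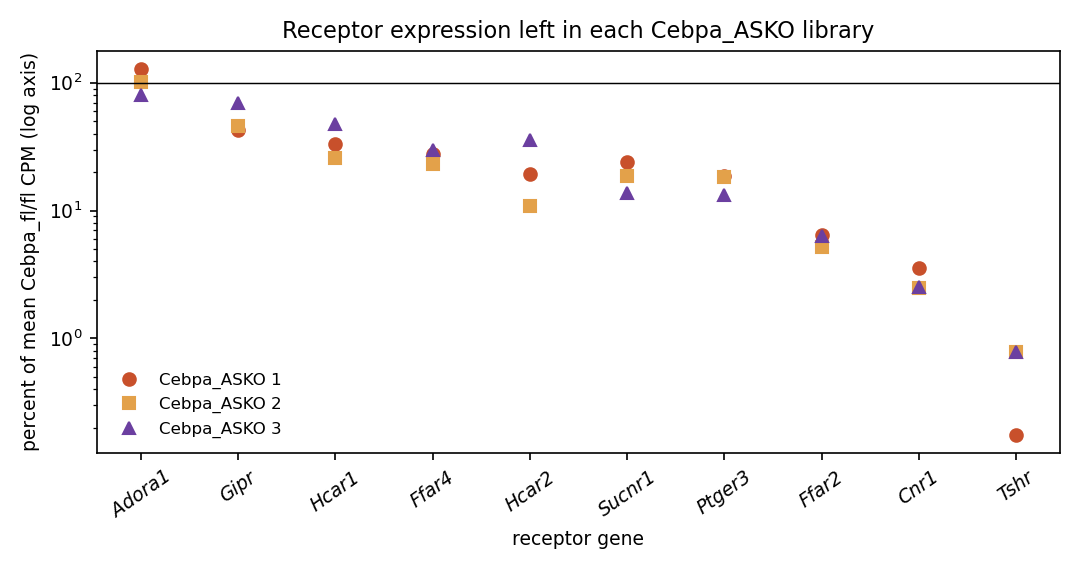
Expression of each receptor gene in each Cebpa_ASKO library as a percent of the mean Cebpa_fl/fl CPM, on a log axis, with the line at 100 percent. *Adora1* lay between 79.9 and 128 percent, *Ffar2* between 5.22 and 6.48, *Cnr1* between 2.46 and 3.57, and *Tshr* below 1 percent, lowest in Cebpa_ASKO 1 at 0.177.

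Levels per transcript length show how the mix of receptors differed. In controls *Hcar1* had the highest mean TPM at 45.1 ± 10.3, followed by *Ptger3* at 39.5 ± 18.2, *Hcar2* at 29.2 ± 2.85, *Ffar2* at 28.8 ± 10.6, *Tshr* at 23.1 ± 6.12, *Ffar4* at 22.2 ± 1.49, *Adora1* at 19.3 ± 3.18 and *Sucnr1* at 18.3 ± 4.87 (SD, n = 3). Each of these neighbours overlapped with the next, so their order is not fixed beyond the spread. *Cnr1* at 3.96 ± 0.229 TPM and *Gipr* at 1.30 ± 0.294 TPM stood apart below them.

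In Cebpa_ASKO iWAT *Adora1* led at 20.4 ± 2.97 TPM, and *Hcar1* at 16.7 ± 6.12 TPM overlapped with it. *Ptger3*, *Hcar2* and *Ffar4* followed at 7.18, 6.75 and 6.25 TPM, with each overlapping the next. *Sucnr1* at 3.68 TPM, *Ffar2* at 1.73 TPM and *Gipr* at 0.717 TPM each stood apart from the next gene below, and *Tshr* at 0.164 TPM and *Cnr1* at 0.116 TPM closed the order and overlapped. The 10 receptors summed to 192, 249 and 251 TPM in the control libraries and to 62.5, 56.5 and 72.0 TPM in the Cebpa_ASKO libraries. *Adora1* made up 8.41% ± 1.06 of that sum in controls and 32.6% ± 7.46 in Cebpa_ASKO (SD, n = 3), and *Tshr* 9.89% ± 1.41 and 0.260% ± 0.186.

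**Figure D3:**
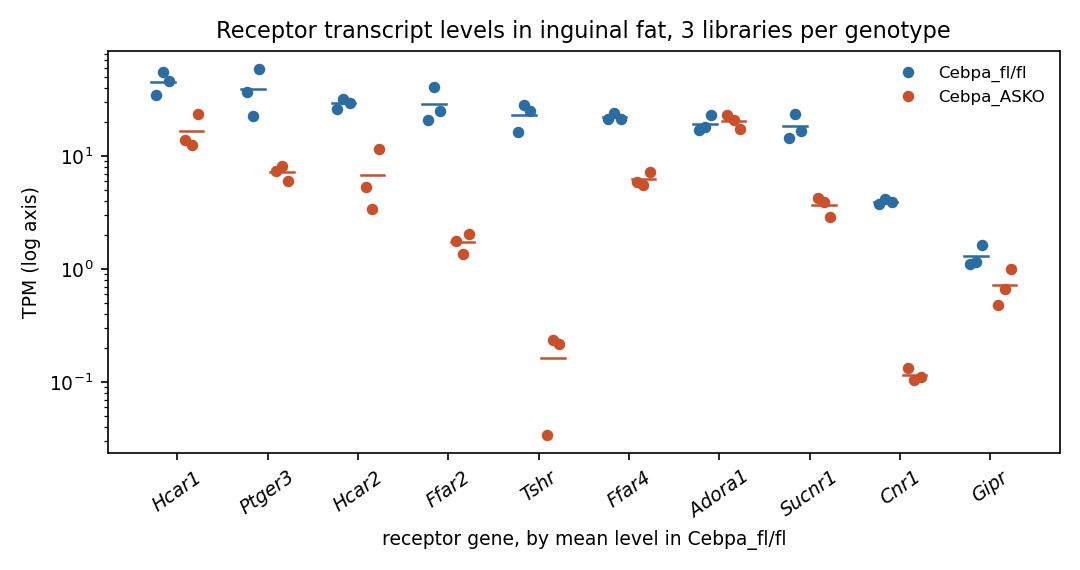
TPM of each receptor gene, on a log axis, in 3 Cebpa_fl/fl and 3 Cebpa_ASKO libraries. Points are libraries and short lines are group means. The genes stand in the order of their control means, from *Hcar1* at 45.1 to *Gipr* at 1.30, and *Adora1* is the gene whose groups overlap.

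Shifts in the make-up of transcripts within a gene were small beside the falls of the genes, and 3 libraries a group are too few for them to pass a test. Shares were compared for 16 transcripts of genes with at least 20 estimated counts in every library, a limit set on the gene and not on the transcript, and some of these transcripts had no counts in a library. The retained-intron transcript Ptger3-203 made up 16.2% ± 2.35 of *Ptger3* in controls and 11% ± 2.74 in Cebpa_ASKO (SD, n = 3), without overlap. The non-coding Sucnr1-202 made up 3.12% ± 2.41 of *Sucnr1* in controls and 8.29% ± 2.51 in Cebpa_ASKO, also without overlap, but that share rests on 1.38 to 7.34 estimated counts in controls and 1.37 to 2.44 in Cebpa_ASKO, too few to read a shift from. For both, an exact permutation test over the libraries, two-sided, gave p = 0.10, the lowest it can give, and 0.400 after Benjamini-Hochberg adjustment over the 16 shares. The *Ffar2*, *Adora1* and *Gipr* transcripts overlapped between the genotypes in their shares. The coding Gipr-201 made up 40.2% ± 2.96 of *Gipr* in controls and 39.8% ± 42.9 in Cebpa_ASKO, with no counts in Cebpa_ASKO 2. The retained-intron Gipr-203 made up 42.9% ± 16.2 in controls and 45.0% ± 29.5 in Cebpa_ASKO, so the *Gipr* level is not all coding RNA.

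Genes with a pattern most like each called receptor were found by Euclidean distance over the 6 libraries, and 3 were taken for each. The log2 CPM values of each gene were first centred on their mean, so the distance weighs the pattern and size of change, not the level. *Adrb3*, the adipocyte β3-adrenergic receptor, was nearest to *Tshr* (distance 1.80, the widest of the nearest genes), at 275, 450 and 458 CPM in controls and 3.61, 2.88 and 4.69 CPM in Cebpa_ASKO. *Gnai1*, which encodes a Gi alpha subunit, was nearest to *Ffar2* (distance 0.448). *Abcd2*, a peroxisomal fatty acid transporter, was nearest to *Cnr1* (0.824), and *Lrg1*, a secreted glycoprotein, to *Hcar1* (0.295). *Cyp2e1*, a cytochrome P450, was nearest to *Hcar2* (0.697) and itself not called (adjusted p = 0.0532). *Acsm5* was second for *Hcar2* at 0.698, and *Adcy5*, an adenylyl cyclase, came next at 0.699. *Angptl8*, a regulator of lipoprotein lipase, was nearest to *Ptger3* (0.583). *Tst*, a mitochondrial sulfurtransferase, was nearest to *Ffar4* (0.227), and *Glb1l2* to *Sucnr1* (0.235), for which *Phgdh*, the first enzyme of serine synthesis, was second (0.279). The libraries are the same for all genes, and nearness describes only these 6 libraries.

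Among the relatives of these receptors, few passed the test. Of 20 relatives, such as other receptors for adenosine, prostaglandin E2 and free fatty acids, 13 had enough counts for the test, and their median was -0.05 on the log2 scale. *Ffar3*, *Oxgr1* and *Fshr* had no counts in any library. *Adora2a*, a Gs-coupled adenosine receptor, was the 1 relative called, lower at 8.53, 5.89 and 9.01 CPM in controls against 3.71, 2.48 and 3.91 CPM in Cebpa_ASKO (log2 fold change -1.21, SE 0.255, adjusted p = 0.0457). No relative was called lower when any library other than Cebpa_fl/fl 2 was left out. *Adora2b* and *Adora3* overlapped between the genotypes, as did *Ptger4*. *Ptger1* was higher in every Cebpa_ASKO library (1.09 ± 0.159 against 1.84 ± 0.279 CPM, SD, n = 3) and *Ptger2* was lower in every one (3.36 ± 0.341 against 2.33 ± 0.481 CPM), but neither passed the test (adjusted p = 0.152 and 0.258).

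Among the G protein alpha subunits that these receptors share, *Gnai1* was called lower. It measured 118, 183 and 132 CPM in controls and 8.08, 6.64 and 10.9 CPM in Cebpa_ASKO. The groups were far apart, with 5.92% of the control mean left (log2 fold change -4.08, SE 0.257, adjusted p = 0.000742), and 1 subunit was called lower under each of the 15 alternatives. The other Gi subunits *Gnai2* (285 ± 35.1 against 282 ± 28.2 CPM) and *Gnai3* (92.9 ± 5.99 against 95 ± 5.27 CPM) overlapped (SD, n = 3). *Gnas*, the Gs subunit, stood at 807 ± 37.6 CPM in controls and 919 ± 61.9 CPM in Cebpa_ASKO. It was higher in every Cebpa_ASKO library but did not pass the test (adjusted p = 0.476). *Gnaq*, a Gq subunit, measured 66.0 ± 5.15 and 63.7 ± 2.12 CPM. *Gnao1*, a Go subunit, was higher in every Cebpa_ASKO library (8.58 ± 4.46 against 23.1 ± 4.99 CPM, log2 fold change 1.43, SE 0.369) but missed the threshold (adjusted p = 0.0865). DESeq2 called 2 subunits higher, limma with a filter 1, and edgeR 1 without Cebpa_fl/fl 1 or without Cebpa_fl/fl 2. *Gna12* and *Gna13* were also higher in every Cebpa_ASKO library, and *Gna11* was lower in every one, without a call. Of the 11 subunits, 1 was called lower and 10 were not called, with a median log2 fold change of 0.03. An unadjusted p below 0.05 in edgeR was found for 5 of the 11, in either direction, and for 3185 of all 16069 genes tested.

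Of 19 regulators of receptor signalling, among them arrestins, receptor kinases and RGS proteins, none was called by edgeR. An unadjusted p below 0.05 in edgeR was found for 2 of the 19, *Rgs4* and *Grk3*, and for 3185 of all 16069 genes tested. DESeq2 called 1 regulator lower. Without Cebpa_ASKO 3, edgeR called 2 lower. Their median log2 fold change was 0.03, and the arrestins *Arrb1* (115 ± 24.5 against 132 ± 16.3 CPM) and *Arrb2* (30.5 ± 9.44 against 31.0 ± 3.92 CPM) overlapped between the genotypes (SD, n = 3).

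Genes that make or clear the ligands were tested beside the receptors. For endocannabinoids, 3 of 10 were called lower: *Mgll*, which breaks down 2-arachidonoylglycerol and monoglycerides (704 ± 18.1 to 286 ± 28.0 CPM, log2 fold change -1.30), *Napepld*, which forms anandamide (-0.90), and *Abhd6*, another monoglyceride hydrolase (-0.64). For prostaglandin E2, *Ptges*, its terminal synthase, fell from 98.6 ± 38.3 to 32.9 ± 2.96 CPM (log2 fold change -1.59), *Pla2g16*, an adipocyte phospholipase A2, also fell (-0.87), and *Abcc4*, a transporter that exports prostaglandins, rose (0.66). *Slco2a1*, which takes prostaglandins up (68.0 ± 24.2 against 121 ± 15.4 CPM, adjusted p = 0.155), was higher in every Cebpa_ASKO library, and *Hpgd*, which inactivates them (23.0 ± 11.8 against 49.2 ± 15.8 CPM, adjusted p = 0.182), overlapped between the genotypes. DESeq2 called 3 genes of this list higher, against 1 by edgeR and none by limma. Of this list, 1 gene was called lower and none higher without Cebpa_ASKO 1. Without Cebpa_fl/fl 3 also 1 gene was called lower, without Cebpa_ASKO 2 none was, and without Cebpa_fl/fl 2 there were 2 called higher.

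For adenosine, 1 of 10 was called, as *Alpl*, a phosphatase that can form adenosine from AMP, rose from 14.3 ± 2.66 to 31.2 ± 5.28 CPM (log2 fold change 1.12, adjusted p = 0.0171). Its call was lost without Cebpa_fl/fl 1, Cebpa_ASKO 1 or Cebpa_ASKO 2. *Nt5e*, the ecto-5′-nucleotidase CD73, measured 7.78 ± 0.874 and 9.54 ± 1.93 CPM and was not called. For lactate, ketone bodies, short-chain fatty acids and succinate, 2 of 14 were called lower, *Slc16a7*, the monocarboxylate transporter MCT2 (-0.86), and *Oxct1*, which activates ketone bodies for oxidation (-0.84). *Ldha*, which makes lactate, measured 925 ± 223 and 1076 ± 200 CPM, and *Sdha*, which oxidizes succinate, 715 ± 174 and 836 ± 117 CPM, and neither was called (SD, n = 3). *Slc16a1*, the lactate and ketone body transporter MCT1, was higher in every Cebpa_ASKO library at 79.3 ± 36.5 against 202 ± 33.8 CPM (log2 fold change 1.35, adjusted p = 0.0731). *Slc16a3*, the lactate exporter MCT4 (1.05, adjusted p = 0.117), and *Suclg1*, a subunit of the enzyme that makes succinate (0.94, adjusted p = 0.123), were also higher in every Cebpa_ASKO library without passing the test. DESeq2 called 3 genes of this list higher, limma with a filter 2, and edgeR 1 without Cebpa_fl/fl 1 or without Cebpa_fl/fl 2.

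Other hormone receptors of adipocytes were also lower in part. Of 20, 6 were called lower, with a median log2 fold change of -0.52 over the list. *Mc2r*, the receptor for ACTH, measured 9.02, 16.5 and 11.3 CPM in controls and 0.0317, 0.153 and 0.426 CPM in Cebpa_ASKO, where 1, 6 and 19 counts were left (log2 fold change -5.80, adjusted p = 0.00426). *Mrap*, the accessory protein that brings MC2R to the cell surface, fell from 130 ± 32.9 to 62.0 ± 4.14 CPM (-1.07). *Ghr*, the growth hormone receptor, fell from 687 ± 134 to 110 ± 10.3 CPM (-2.65). *Insr*, the insulin receptor (-0.93), *Adipor2*, an adiponectin receptor (-0.76), and *Esr1*, the estrogen receptor α (-0.64), made up the rest. The count was 3 without Cebpa_fl/fl 3 and without each Cebpa_ASKO library. *Igf1r*, *Thra*, *Npr1* and *Adipor1* overlapped between the genotypes.

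**Figure D4:**
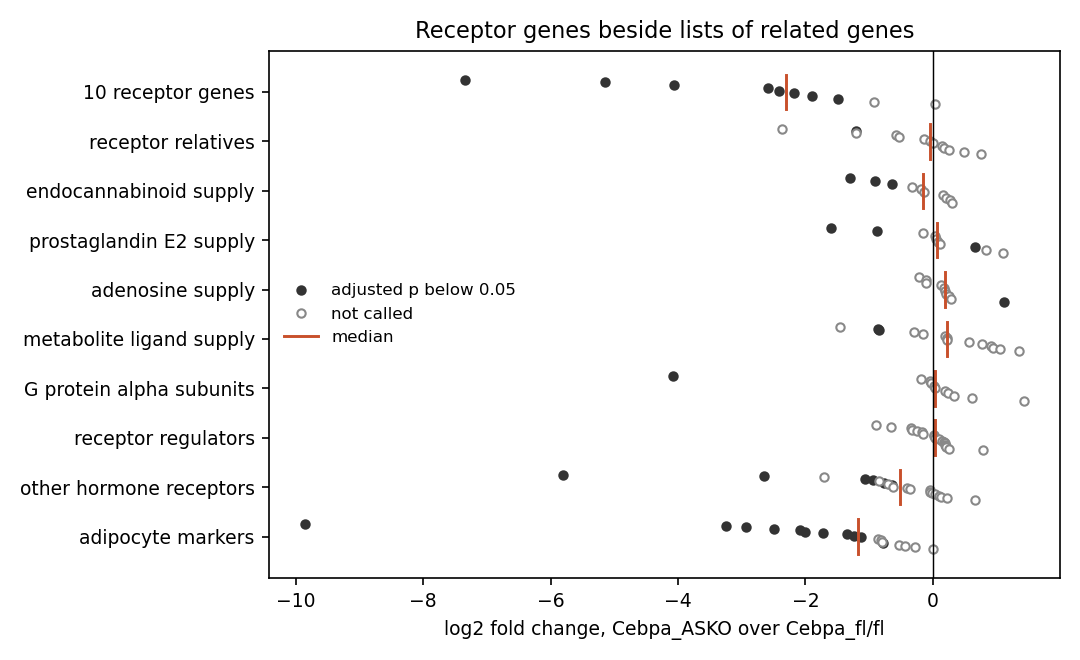
Log2 fold change, Cebpa_ASKO over Cebpa_fl/fl, of each tested gene in the receptor set and in lists of related genes. Each point is 1 gene, filled where the adjusted p was below 0.05, and the vertical strokes are medians. The receptor median stands at -2.30, that of adipocyte markers at -1.18 and that of other hormone receptors at -0.52, and *Gnai1* is the filled point at -4.08 among the alpha subunits.

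The adipocyte markers can be set beside these values, but they are not a neutral scale. The paper describes *Adipoq*, which is among them, as a downstream target of C/EBPα. The median log2 fold change of the 18 markers was -1.18, with all 18 at or below 0. They ranged from *Retn*, the hormone resistin, at -9.85 to *Slc2a4*, the insulin-responsive glucose transporter, at 0.00. *Plin1*, the lipid droplet coat protein, fell from 1263 ± 179 to 580 ± 92.3 CPM (-1.12), and *Adipoq* fell from 2602 ± 439 to 342 ± 37.5 CPM (-2.93; SD, n = 3). Of the receptors, *Tshr*, *Cnr1* and *Ffar2* had lower values than *Adipoq*, and *Gipr* and *Adora1* had higher values than *Plin1*. No test compared the receptors with the markers.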

How the data were processed

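Poly-A RNA of iWAT was sequenced as paired-end reads by the authors. Per the labels, kallisto 0.44.0 gave the deposited estimated counts per transcript and the deposited TPM, a length-normalized share, and the submitters' processing notes list GRCm38.p6 and GRCh38.p12; the transcript annotation is not given in the sources used here. Here, estimated counts were summed per gene symbol with GENCODE M21, which matched 116816 of 118489 transcripts (98.6%), and rounded. edgeR 4.0.16 (TMM, default filter on low counts, quasi-likelihood test, Benjamini-Hochberg over 16069 genes, called at an adjusted p below 0.05) compared 3 with 3 libraries in R 4.3.3. Levels are TMM-normalized CPM, compared between genes only as TPM. Intervals cover the spread between mice and counting error together, and no separate counting interval is given.

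Replicates differed by more than sampling noise, and all 6 are separate mice of 1 labelled batch. Alternatives were DESeq2 1.42.0, its size factors, total-count scaling, other filters on low counts, limma 3.58.1 on log2(TPM + 1) and log2(TPM + 0.1), a replicate block, and each library left out, where a group of 2 shares the fitted spread. The procedure was tested on simulated counts. The receptors, gene lists and tests were chosen with earlier results of these data known. All receptors were named, with up to 6 called genes per list, genes in counts of 5 or fewer, and the nearest gene per called receptor. Of the rest of the 3 nearest genes (mean log2 CPM of at least 1), only *Acsm5*, *Adcy5* and *Phgdh* were named. Genes named as not called were chosen after their values were seen. RefSeq promoters were matched by symbol.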

Additional observations from a re-analysis of the deposited data

How the results depend on the processing

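Of 150 values (10 receptors under 15 alternatives), 134 kept direction and side of the threshold, 13 kept direction but lost the call (*Hcar1*, *Hcar2* and *Ptger3*), and 3 changed sign, all of *Adora1* when a library was left out (-0.15, -0.05 and -0.00; range 0.18 to -0.15 over the 6 libraries). Limma on log2(TPM + 1) gave a median receptor log2 fold change of -2.06, with or without a filter, since the pseudocount shrinks low genes, and leaving out libraries gave -2.37 to -2.15. Leaving out libraries gave 5 to 8 receptors called. Over all genes, 840 were called, against 1802 with DESeq2 (37.0% higher, against 26.5%), 359 with limma without a filter and 495 where a change of 2-fold or more was also asked for; leaving out libraries gave 311 to 922, of which 10.6% were higher without Cebpa_ASKO 1 and 12.8% without Cebpa_fl/fl 1. With replicate number as a block, 5 receptors and 370 genes were called. Same-numbered libraries had correlations of deviations of 0.07, 0.03 and -0.20, and differently numbered ones from -0.18 to 0.15. With 3 mice a group, these values cannot decide whether the numbers pair the mice. With the stricter palindrome, 0 receptor genes held the C/EBP motif. The causes were not tested. Leaving out a library lowers the number of samples and takes away a particular mouse together. Depth limits *Tshr* in Cebpa_ASKO, with 4 to 25 counts.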
